A study of Mus musculus with 4 samples.

Results

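The genes described here are 35 markers of macrophages, other myeloid cells and antigen presentation by major histocompatibility complex (MHC) class II, out of 18193 mouse genes with a probe set of their own on the array. They were named by symbol, and each was read from its brightest probe set, the one with the highest mean over the 4 arrays. All 35 were measured, 17 of them by more than 1 probe set. They cover general leukocyte genes, macrophage lineage genes, scavenger and pattern receptors, Fc receptors and their adaptors, lysozymes and cathepsin S, complement C1q, the phagocyte NADPH oxidase and the MHC class II pathway.

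Macrophages lie in the sinuses of the lymph node, where they take up particles, opsonised antigen and dying cells from lymph. Their identity rests on the transcription factor PU.1, encoded by Spi1, and their survival on the receptor encoded by Csf1r. MHC class II molecules, which present peptides to helper T cells, are made by macrophages, dendritic cells and B cells, and can be induced on endothelium and stroma by interferon gamma, which acts through the transactivator encoded by Ciita.

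The 4 Affymetrix arrays hold RNA from endothelial-enriched stromal fractions of axillary lymph nodes that drained tumours in female SCID/NOD mice aged 6 to 8 weeks. SCID mice lack mature T and B cells and keep macrophages and other myeloid cells. The 2 metastatic samples came from nodes draining human 293-VEGF-D tumours, which overexpress the lymphangiogenic factor VEGF-D, and the 2 non-metastatic samples from nodes draining 293-Apex tumours without VEGF-D. Tumours grew under the skin of the left flank to 1600 to 2500 cubic mm, over 3 to 4 weeks. Each sample pooled the nodes of 1 to 5 mice, and nodes draining 293-VEGF-D tumours were taken only when visibly enlarged. Digested cells were cultured briefly and then selected with an antibody to podoplanin, a surface protein of lymphatic endothelium and fibroblastic reticular cells. The labels call the 2 samples of a group biological replicates, and with 2 against 2 an exact permutation test cannot give a p below 0.33.

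The descriptions of the samples differ on how the leukocytes were removed. The shared protocol describes magnetic depletion of tumour cells through class I HLA and of leukocytes through CD16 and CD32, the products of Fcgr3 and Fcgr2b. The sorting label, however, gives that depletion before culture for the metastatic samples and no depletion for the non-metastatic samples. If the label is right, depletion and metastatic state cannot be told apart in any difference between the groups. In such bulk RNA, fewer cells of a type and less RNA per cell cannot be told apart either.

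Levels are given as log2 signal after quantile normalization of the 4 arrays, and a difference is metastatic minus non-metastatic, so a negative value means a lower level in the metastatic samples. No probe set passed the threshold, an adjusted p under 0.05 by limma with Benjamini-Hochberg adjustment over 45037 probe sets, so 0 of the 35 genes were called against a background of 0% of all genes. At an unadjusted limma p under 0.05, 5 of the 35 were lower, against 4.07% of all genes, and 0 were higher, against 2.63%. Those 5 were Csf1r, Fcgr3, Lyz1, Lyz2 and H2-Eb1. How the signal of the Lyz1 probe set divides between Lyz1 and Lyz2 is uncertain, as described below. Once non-metastatic replicate 1 was left out, 3 of the 35 were lower at that level, against 2.64% of all genes in that fit. Adjusted p-values of the 35 ran from 0.522 to 1.

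Most of the 35 differences had the same direction, a lean that is described here and was not tested. In 25 genes the metastatic mean was the lower and in 10 the higher, where 50.1% of all genes were lower. The median difference was -0.14, against -3e-04 over all genes. The 35 were chosen with earlier results of these data known, so their shares are a description and not an unbiased comparison. Both metastatic arrays lay below both non-metastatic arrays for 13 of the 35 (37.1%), where 17.3% of all genes did so. Both lay above for 6 of the 35 (17.1%), where 17.2% of all genes did so. Lyz1, Lyz2 and C1qa reached a 2-fold lower level, against a background of 0.704% of genes, and no member was at least 2-fold higher, against 0.242%. With non-metastatic replicate 1 left out, Lyz1 was the 1 member at least 2-fold lower, against 0.945% of all genes.

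**Figure D1:**
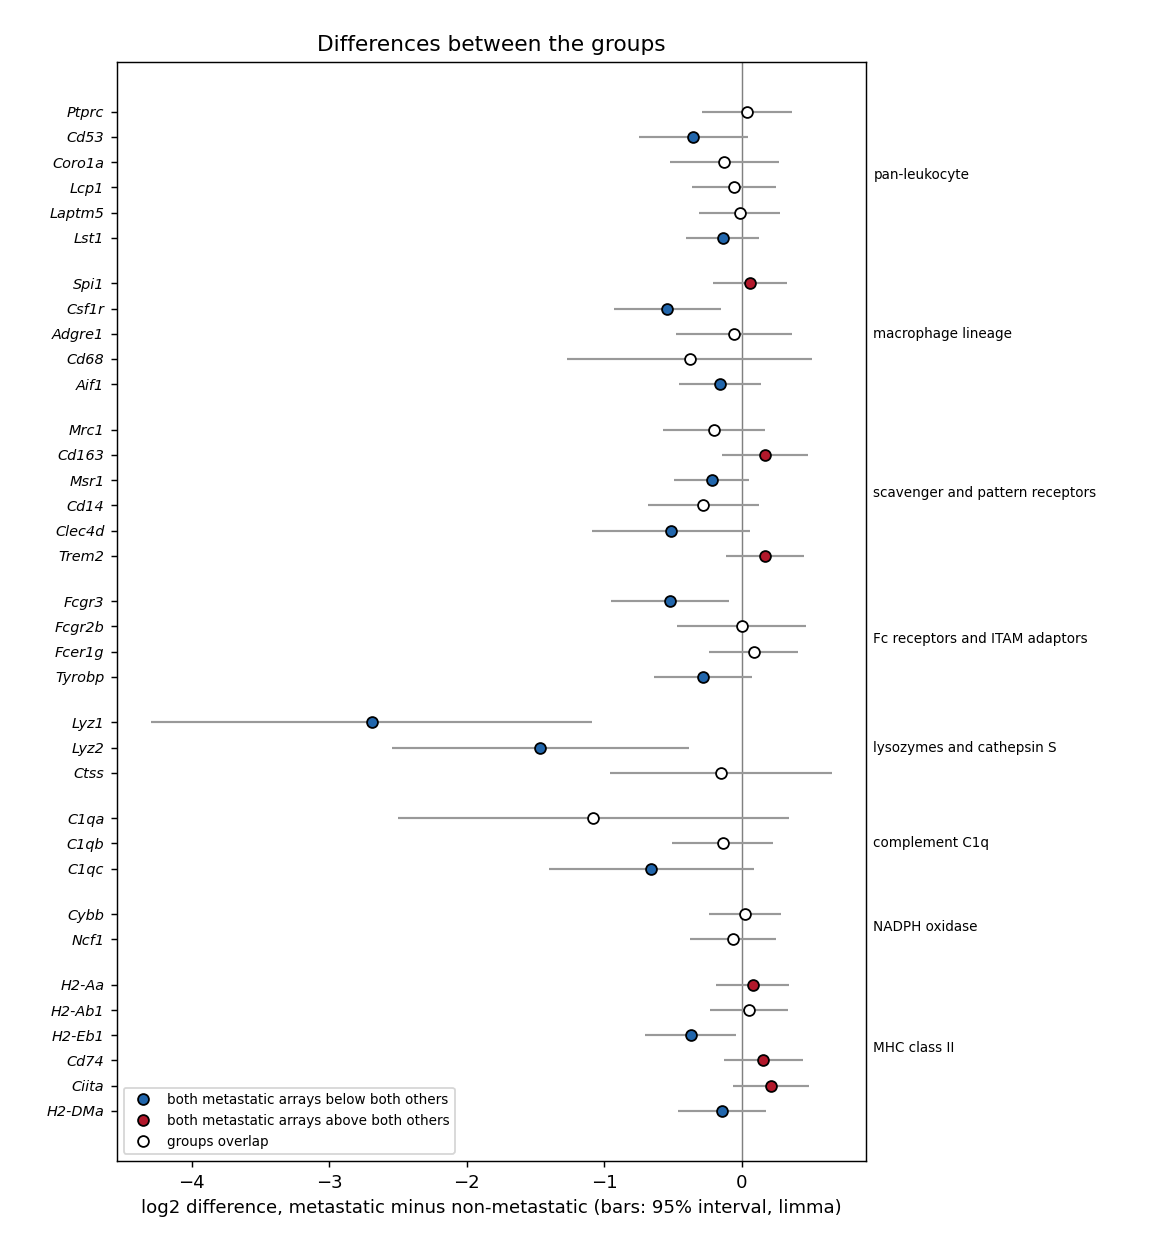
Difference in log2 signal, metastatic minus non-metastatic, for each of the 35 genes in order of role, with the 95% confidence interval of the limma fit (2 arrays a group). Lyz1 at -2.69 and Lyz2 at -1.47 lie farthest to the left, and the intervals of 5 genes leave out 0. Filled points mark genes whose groups did not overlap.

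The 4 arrays did not share this lean evenly. Non-metastatic replicate 1 carried the highest level of 17 of the 35 genes (48.6%), while it carried the highest level of 19.6% of all genes. Metastatic replicate 1 was highest for 4, metastatic replicate 2 for 10 and non-metastatic replicate 2 for 4. Within the non-metastatic group, replicate 1 exceeded replicate 2 for 24 of the 35, and by more than 0.5 on the log2 scale for 7 of them (20%), against 1.87% of all genes. Of 9 endothelial markers, 6 were highest on the same array. Their signals added up to 1298 and 1019 on the non-metastatic arrays and 659.9 and 515.1 on the metastatic arrays, a gap carried by Emcn and Lyve1. Without these genes the sums were 555 and 446 on the non-metastatic and 489 and 446 on the metastatic arrays. Their part in the differences of the leukocyte genes was not tested.

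**Figure D2:**
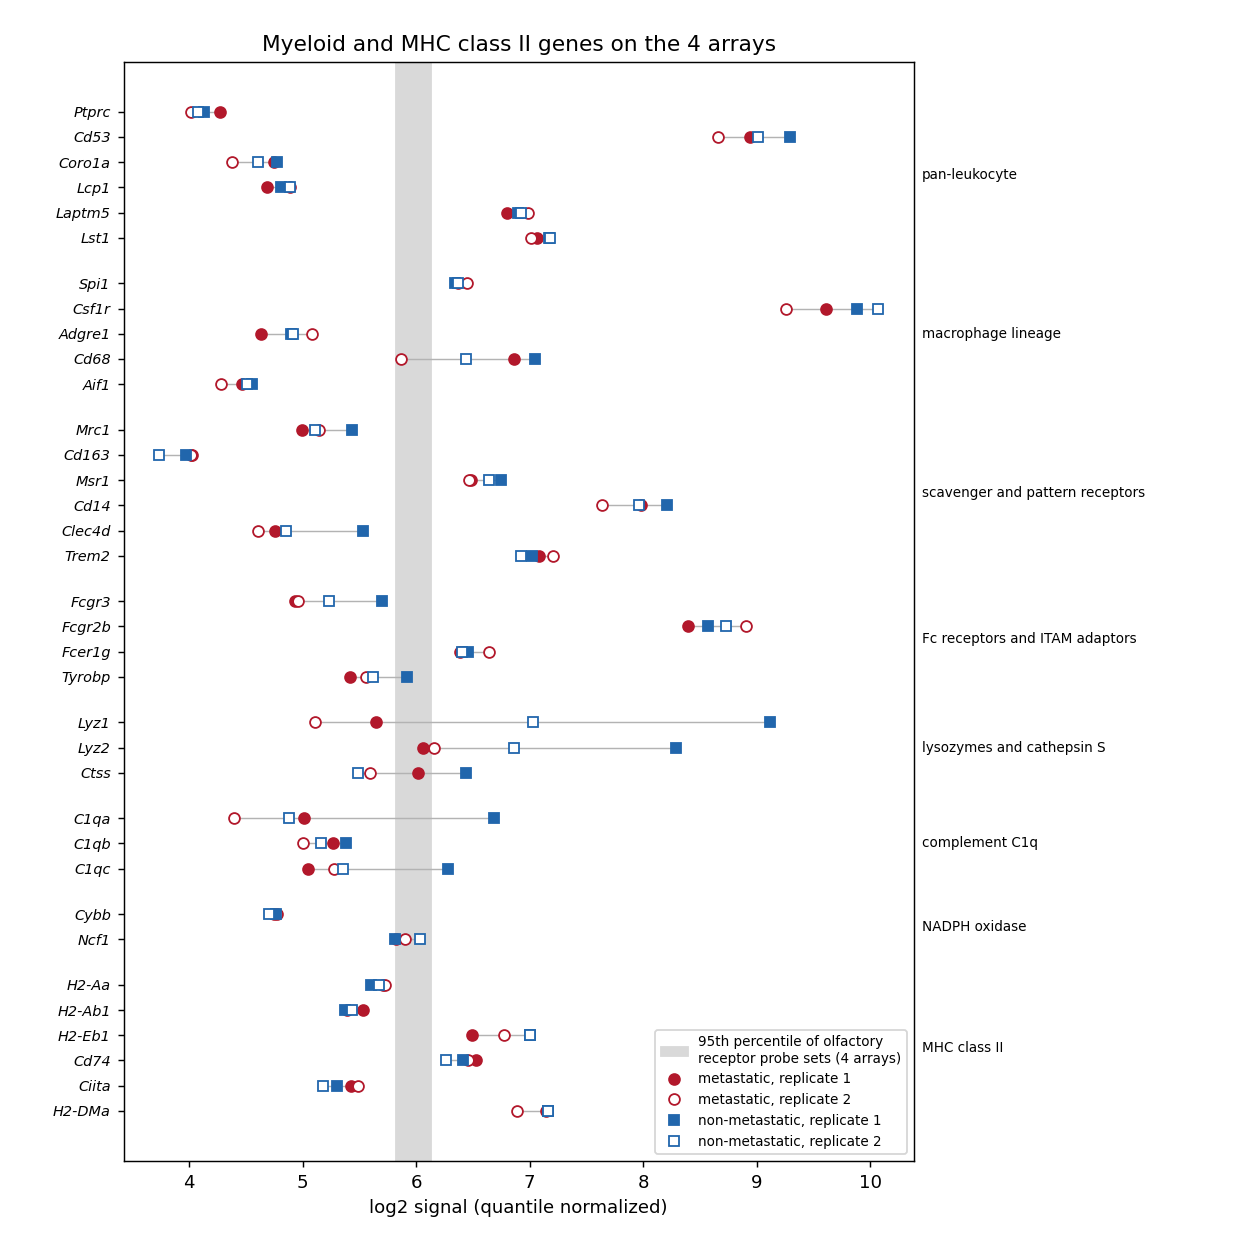
Log2 signal of each of the 35 genes on each of the 4 arrays, arranged by role, with circles for metastatic and squares for non-metastatic arrays, filled for replicate 1. The grey band spans the 95th percentiles of 44 olfactory receptor probe sets on the 4 arrays. Lyz1, Lyz2, C1qa and C1qc spread widest, with non-metastatic replicate 1 at the top of each.

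How bright the genes were says how much each could show. These arrays come without detection calls, so the 44 probe sets of olfactory receptors, which neither endothelium nor macrophages are known for, served as a reference for dim signal. Their 95th percentile was 5.82 and 6.13 on the metastatic arrays and 6.12 and 6.06 on the non-metastatic arrays. Of the 35 genes, 14 lay above it on all 4 arrays, 6 on 1 to 3 arrays and 15 on no array. Array by array, 17 and 14 of the 35 lay above it on the metastatic and 19 and 16 on the non-metastatic arrays. Of all 18193 genes, 12214 and 11444 did so on the metastatic and 11476 and 11690 on the non-metastatic arrays. Above it throughout were Cd53, Laptm5, Lst1, Spi1, Csf1r, Msr1, Cd14, Trem2, Fcgr2b, Fcer1g, Lyz2, H2-Eb1, Cd74 and H2-DMa. Below it throughout were the defining leukocyte and macrophage markers Ptprc and Adgre1, together with Coro1a, Lcp1, Aif1, Mrc1, Cd163, Clec4d, Fcgr3, Tyrobp, C1qb, Cybb, H2-Aa, H2-Ab1 and Ciita. In what follows, bright means above this reference on all 4 arrays and dim below it on all 4. A signal below it is not proof of absence, because probe sets differ in their own background. A signal above it is not proof of expression either. Though SCID mice lack mature T cells, 4 of 9 T cell markers lay above it on each array. Among them were Zap70 at 8.64 and 8.93 on the metastatic and 8.91 and 9.03 on the non-metastatic arrays, and Cd3e at 6.94, 7.35, 7.32 and 7.42 in the same order.

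Among the general leukocyte genes, 5 of 6 had the lower mean in the metastatic samples and none passed the test. Ptprc, which encodes the common leukocyte antigen CD45, read 4.28 and 4.01 on the metastatic arrays and 4.13 and 4.08 on the non-metastatic arrays, a difference of 0.04 (SE 0.13). The groups overlapped, and its second probe set, at 3.96, 4.12, 4.26 and 4.02 in the same order, was as dim. Cd53, a tetraspanin of leukocytes, was bright at 8.94 and 8.66 on the metastatic arrays and 9.30 and 9.01 on the non-metastatic arrays. Both metastatic arrays lay below both non-metastatic arrays, with a difference of -0.35 (SE 0.16). The second Cd53 probe set was dim, at 3.90, 4.06, 4.25 and 3.97 in the same order. Its groups overlapped, with a difference of -0.12 (SE 0.14). Lst1, a transmembrane protein of leukocytes encoded in the MHC region, also separated the groups, at 7.07 and 7.01 on the metastatic arrays and 7.17 and 7.18 on the non-metastatic arrays, but by only -0.14 (SE 0.11). The groups overlapped for the other 3 genes. Coro1a, an actin regulator of leukocytes, read 4.75, 4.38, 4.77 and 4.61 in the same order, a difference of -0.13 (SE 0.16). Lcp1, the leukocyte actin bundler L-plastin, read 4.69, 4.89, 4.81 and 4.89, a difference of -0.06 (SE 0.12). Laptm5, a lysosomal protein of blood cells, was bright at 6.80, 6.98, 6.90 and 6.92, a difference of -0.02 (SE 0.12). On 2 of its 4 other probe sets the groups did not overlap, namely 1436905_x_at, at 3.82, 3.77, 4.31 and 4.26, a difference of -0.49 (SE 0.11), and 1447742_at, a difference of -0.23 (SE 0.13). The second probe set of Lcp1 also separated the groups as lower, by -0.27 (SE 0.13), while a second one of Coro1a separated them as higher, by 0.17 (SE 0.12).

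Of the 5 macrophage lineage genes, Csf1r stood apart from the others. Csf1r encodes the receptor for colony stimulating factor 1 and interleukin 34, and its brightest probe set, 1419872_at, read 9.61 and 9.26 on the metastatic arrays and 9.88 and 10.07 on the non-metastatic arrays. Its metastatic mean of 9.43 ± 0.24 (SD, n = 2) lay below the non-metastatic mean of 9.97 ± 0.13 (SD, n = 2), a difference of -0.54 (SE 0.16) with a 95% interval of -0.93 to -0.15. This amounts to 1.45-fold lower, with an adjusted p of 0.636 by limma with Benjamini-Hochberg adjustment. The other 2 probe sets of Csf1r pointed the same way, at -0.30 (SE 0.12) and -0.39 (SE 0.13), and the groups did not overlap on either of them. With single arrays left out the difference was most negative without metastatic replicate 1, at -0.71, and least so when the other metastatic sample was omitted, at -0.37.

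The remaining lineage genes differed less between the groups than Csf1r did. Spi1, which encodes PU.1, read 6.37 and 6.45 on the metastatic arrays and 6.34 and 6.37 on the non-metastatic arrays, a difference of 0.06 (SE 0.11), with the metastatic arrays slightly above. Adgre1, which encodes the F4/80 antigen that marks most mouse tissue macrophages, was dim at 4.63 and 5.08 on the metastatic arrays and 4.90 and 4.92 on the non-metastatic arrays. Its 2 non-metastatic arrays lay between the metastatic ones, and the difference was -0.06 (SE 0.17). Cd68, a lysosomal glycoprotein of macrophages, read 6.86 and 5.87 on the metastatic arrays and 7.04 and 6.44 on the non-metastatic arrays, and differed more between replicates than between groups, with a difference of -0.38 (SE 0.36). Aif1, the calcium-binding protein also known as Iba1, was dim at 4.47 and 4.28 on the metastatic arrays and 4.56 and 4.51 on the non-metastatic arrays, a difference of -0.16 (SE 0.12), with both metastatic arrays below. Bright Csf1r and Spi1 were therefore found beside dim Adgre1 and Aif1 on all 4 arrays.

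Both ligands of the receptor were bright on these arrays. Csf1, the main growth factor of macrophages, read 12.74 and 13.21 on the metastatic arrays and 12.98 and 13.21 on the non-metastatic arrays, and the groups overlapped. Il34, the second ligand, read 7.60 and 7.21 on the metastatic arrays and 7.89 and 7.45 on the non-metastatic arrays, again with overlap. Of the 5 ligand and myeloid growth factor genes measured, 4 had the lower and 1 the higher mean in the metastatic samples, with a median difference of -0.11 and no separation of the groups for any of them. The sign for Csf1 turned to 0.02 when all its probe sets were averaged and that for Kitl, the stem cell factor, from -0.11 to 0.10.

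Scavenger and pattern receptors gave small differences in both directions, 4 lower and 2 higher out of 6. Clec4d, a C-type lectin of myeloid cells, had the most negative difference, at 4.75 and 4.61 on the metastatic arrays and 5.54 and 4.85 on the non-metastatic arrays. The groups did not overlap, but non-metastatic replicate 1 stood well above the other 3 arrays, and without it the difference went from -0.51 (SE 0.23) to -0.17. Msr1, the class A scavenger receptor, read 6.48 and 6.47 on the metastatic arrays and 6.75 and 6.64 on the non-metastatic arrays and separated the groups by -0.22 (SE 0.11). Its 3 other probe sets ran from -0.34 to -0.03. Cd14, the co-receptor for lipopolysaccharide, was bright at 7.98 and 7.64 on the metastatic arrays and 8.21 and 7.96 on the non-metastatic arrays, and metastatic replicate 1 overlapped the non-metastatic arrays. Mrc1, the mannose receptor, is carried by sinus macrophages and also by lymphatic endothelium. It was dim at 4.99 and 5.15 on the metastatic arrays and 5.43 and 5.11 on the non-metastatic arrays, a difference of -0.20 (SE 0.15). Cd163, the haemoglobin scavenger receptor of macrophages, was dim at 4.03 and 4.02 on the metastatic arrays and 3.97 and 3.74 on the non-metastatic arrays, with a difference of 0.17 (SE 0.13). Trem2, a lipid-sensing receptor of macrophages, read 7.09 and 7.20 on the metastatic arrays and 7.02 and 6.92 on the non-metastatic arrays, with both metastatic arrays above both non-metastatic arrays by 0.17 (SE 0.11). All 6 of these receptors read higher on non-metastatic replicate 1 than on replicate 2.

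The Fc receptor genes include the targets of the depletion antibody. Fcgr3, which encodes the activating receptor CD16, was dim at 4.94 and 4.96 on the metastatic arrays and 5.70 and 5.23 on the non-metastatic arrays. The metastatic arrays were nearly the same and lay below both non-metastatic arrays, a difference of -0.52 (SE 0.17) with a 95% interval of -0.95 to -0.09 and an adjusted p of 0.72 by limma with Benjamini-Hochberg adjustment. Without non-metastatic replicate 1 the difference was -0.29. Fcgr2b, which encodes the inhibitory receptor CD32 found on B cells, myeloid cells and also some endothelium, was bright at 8.39 and 8.90 on the metastatic arrays and 8.57 and 8.73 on the non-metastatic arrays. Here the groups overlapped fully and the difference was -0.001 (SE 0.19), with a 95% interval of -0.47 to 0.47. Its 4 other probe sets lay below the olfactory reference on every array. Their differences ranged from -0.55 to 0.15, with both signs among them. On 2 of these, 1435477_s_at and 1455332_x_at, both metastatic arrays lay below both non-metastatic arrays, by -0.55 (SE 0.21) and -0.20 (SE 0.11), so the overlap holds for the brightest probe set and not for every one.

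The signalling adaptors that pair with activating receptors were not alike. Tyrobp, the adaptor DAP12 that carries the signal of Trem2, read 5.42 and 5.56 on the metastatic arrays and 5.92 and 5.62 on the non-metastatic arrays and separated the groups by -0.28 (SE 0.14). Fcer1g, the common gamma chain that carries the signal of CD16, read 6.39 and 6.64 on the metastatic arrays and 6.45 and 6.40 on the non-metastatic arrays, a difference of 0.09 (SE 0.13) with overlap. Of the 5 other Fc receptor genes, 2 had the lower and 3 the higher mean (median difference 0.06). The lowest limma p among them belonged to Fcrls, a myeloid Fc receptor-like gene, at -0.28 (SE 0.13), Fcgrt, the neonatal Fc receptor, at 0.26 (SE 0.19), and Fcgr4, an activating receptor, at 0.15 (SE 0.16).

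**Figure D3:**
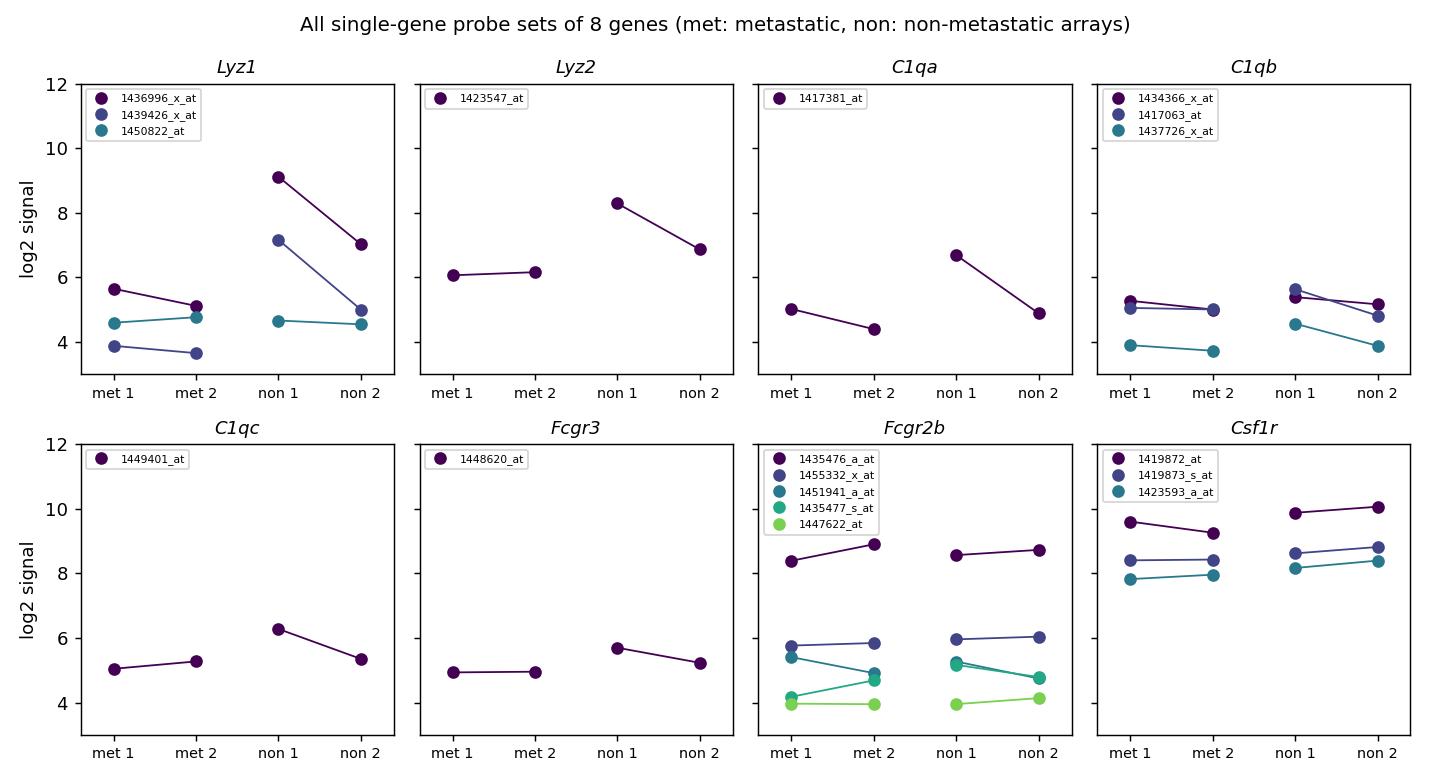
Log2 signal on the 4 arrays (met 1 and 2, metastatic; non 1 and 2, non-metastatic) of every single-gene probe set of 8 of the genes, a colour for each probe set and a line joining the replicates of a group. The 2 x_at probe sets of Lyz1 differ by -2.69 and -2.32 while 1450822_at differs by 0.08, and all 3 Csf1r probe sets are lower on the metastatic arrays.

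Lyz1 and Lyz2 had the most negative differences of the 35. They encode the bactericidal lysozymes of mice, Lyz2 the enzyme of macrophages and neutrophils and Lyz1 that of Paneth cells of the gut, and they are neighbours on chromosome 10. The 250 bases before each start are shown because the brightest probe sets of these 2 genes shared their pattern over the arrays. The probes bind the transcripts, which were not compared here. Both are from RefSeq on GRCm38.p6, on the minus strand and written 5′ to 3′, at chr10:117292869-117293118 for Lyz1 and chr10:117282273-117282522 for Lyz2. The 50 bases before the start, in capitals, are the same in both.
Lyz1: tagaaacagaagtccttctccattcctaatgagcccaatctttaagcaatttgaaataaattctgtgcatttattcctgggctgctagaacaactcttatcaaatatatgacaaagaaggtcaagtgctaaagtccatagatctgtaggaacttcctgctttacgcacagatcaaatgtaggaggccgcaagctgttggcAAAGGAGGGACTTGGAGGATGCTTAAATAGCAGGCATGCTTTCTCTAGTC
Lyz2: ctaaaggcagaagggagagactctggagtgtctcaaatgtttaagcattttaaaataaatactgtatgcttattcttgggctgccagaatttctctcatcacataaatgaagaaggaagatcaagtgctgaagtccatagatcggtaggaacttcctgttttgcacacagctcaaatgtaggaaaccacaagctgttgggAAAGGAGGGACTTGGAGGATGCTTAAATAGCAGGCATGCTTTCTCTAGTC
Over the whole of these windows 205 of 260 aligned columns were identical (78.8%).

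Lyz1, by probe set 1436996_x_at, read 5.65 and 5.11 on the metastatic arrays and 9.12 and 7.03 on the non-metastatic arrays. The mean was 5.38 ± 0.38 (SD, n = 2) in the metastatic and 8.07 ± 1.48 (SD, n = 2) in the non-metastatic samples, which is 6.46-fold lower, with a difference of -2.69 (SE 0.65) and a 95% interval of -4.30 to -1.09. The limma adjusted p was 0.522 after Benjamini-Hochberg adjustment. A second probe set read 3.88, 3.65, 7.16 and 5.00 in the same array order, a difference of -2.32 (SE 0.65). The third, 1450822_at, stayed between 4.54 and 4.76 on all arrays and gave 0.08 (SE 0.12). The 2 probe sets with the suffix x_at are of a kind that the manufacturer marks as able to bind several transcripts, so how their signal divides between Lyz1 and Lyz2 is uncertain.

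Lyz2 read 6.06 and 6.16 on the metastatic arrays and 8.29 and 6.86 on the non-metastatic arrays. Its mean was 6.11 ± 0.07 (SD, n = 2) in the metastatic and 7.58 ± 1.01 (SD, n = 2) in the non-metastatic samples, a difference of -1.47 (SE 0.44) with a 95% interval of -2.54 to -0.39, 2.76-fold lower, and a limma adjusted p of 0.645 after Benjamini-Hochberg adjustment. Lyz2 and the x_at probe sets of Lyz1 were low on both metastatic arrays, intermediate on non-metastatic replicate 2 and high on non-metastatic replicate 1. The remaining Lyz1 probe set, 1450822_at, did not share this pattern. The 2 non-metastatic arrays themselves differed by 2.09 for Lyz1 and 1.42 for Lyz2. Without replicate 1 the differences were -1.65 for Lyz1 and -0.75 for Lyz2, and the groups still did not overlap. Without replicate 2 they were -3.75 and -2.19. Ctss, which encodes cathepsin S, the protease that trims the invariant chain, read 6.02 and 5.60 on the metastatic arrays and 6.44 and 5.48 on the non-metastatic arrays. Replicates differed more than groups, and the difference of -0.15 (SE 0.33) turned to 0.32 without non-metastatic replicate 1.

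**Figure D4:**
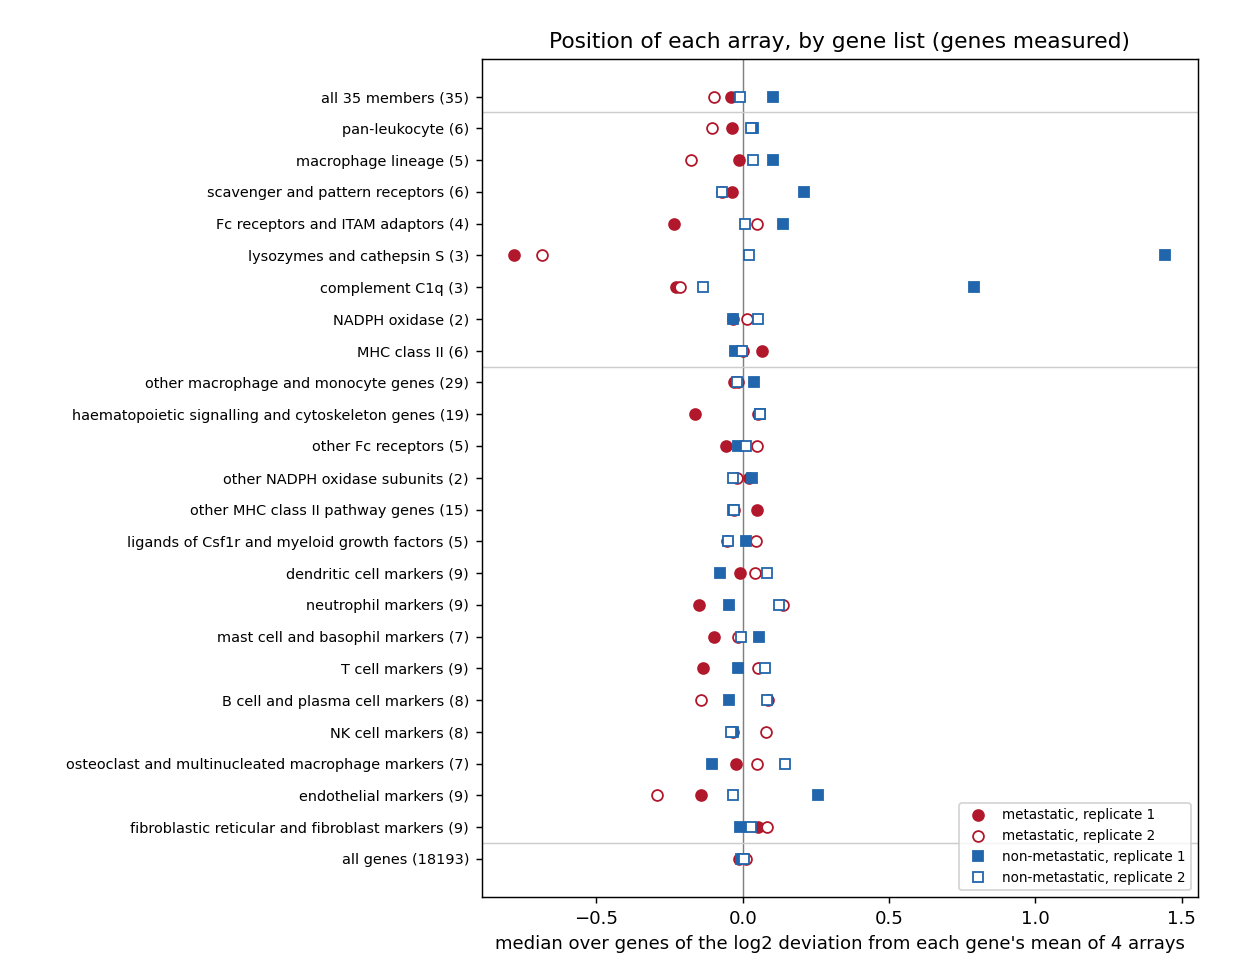
Median deviation of each gene list from its genes' means over the 4 arrays, in log2 units, with a point for each array, for all 35 genes, their role groups, 15 other lists and all genes (genes measured in brackets; circles metastatic, squares non-metastatic, filled replicate 1). Lysozymes with cathepsin S, and complement C1q, stand out on non-metastatic replicate 1 at 1.44 and 0.79, while the MHC class II genes lie between -0.03 and 0.06 on the 4 arrays.

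The 3 chains of complement C1q, which tissue macrophages secrete and which opsonise dying cells and immune complexes, shared the peak on non-metastatic replicate 1. C1qa read 5.02 and 4.39 on the metastatic arrays and 6.69 and 4.88 on the non-metastatic arrays. Its difference was -1.08 (SE 0.57), or 2.11-fold lower, yet the level on metastatic replicate 1 exceeded that on non-metastatic replicate 2. Leaving out non-metastatic replicate 1 gave a difference of -0.18. C1qc read 5.05 and 5.28 on the metastatic arrays and 6.28 and 5.35 on the non-metastatic arrays, a difference of -0.66 (SE 0.30) that went to -0.19 without the same array. C1qb gave -0.14 (SE 0.15) by its brightest probe set, at 5.27 and 5.00 on the metastatic arrays and 5.39 and 5.16 on the non-metastatic arrays, and its other probe sets gave -0.19 and -0.41. All 3 genes were highest on that array, by 1.80 for C1qa and 0.93 for C1qc over its partner replicate. On the other 3 arrays C1qa ran from 4.39 to 5.02 and C1qc from 5.05 to 5.35.

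C1qb and C1qc lie close together on chromosome 4, and their upstream windows are shown for the PU.1 core they both hold. Any relation of this core to the levels on the arrays was not tested. The windows are the 250 bases before the RefSeq start on GRCm38.p6, minus strand, at chr4:136886201-136886450 and chr4:136892915-136893164, with the core in capitals.
C1qb: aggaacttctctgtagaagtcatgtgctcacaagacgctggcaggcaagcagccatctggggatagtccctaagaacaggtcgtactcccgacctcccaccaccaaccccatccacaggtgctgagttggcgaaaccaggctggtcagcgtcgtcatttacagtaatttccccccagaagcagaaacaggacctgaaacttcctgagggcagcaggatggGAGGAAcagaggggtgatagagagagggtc
C1qc: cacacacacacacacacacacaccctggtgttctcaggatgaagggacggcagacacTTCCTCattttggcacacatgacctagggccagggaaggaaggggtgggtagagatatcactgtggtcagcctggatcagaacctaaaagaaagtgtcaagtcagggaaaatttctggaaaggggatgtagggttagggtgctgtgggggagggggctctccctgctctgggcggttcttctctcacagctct
The core searched was GAGGAA on both strands. Its first base lies 30 bases before the start in C1qb and 193 bases before it, on the opposite strand and so read as TTCCTC, in C1qc. Such a match is a description of letters, not of binding. Of the 24 members with a window in the table, 12 held it, namely Ptprc, Cd53, Laptm5, Cd68, Aif1, Mrc1, Clec4d, Trem2, Fcgr3, Ctss, C1qb and C1qc. Across all genes 25.9% held it, or 23.3% of all 32851 windows of that length. The windows of Lyz1 and Lyz2 do not contain these letters. Lst1, Spi1, Csf1r, Adgre1, Msr1, Cd14, Tyrobp, C1qa, H2-Ab1, Cd74 and Ciita had no window in the table.

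The phagocyte NADPH oxidase, which makes superoxide against microbes, showed no separation of the groups on the brightest probe sets. Cybb, its catalytic membrane subunit gp91phox, was dim and level at 4.75 and 4.77 on the metastatic arrays and 4.76 and 4.71 on the non-metastatic arrays, a difference of 0.02 (SE 0.11). Its 2 other probe sets separated the groups in opposite directions, at 0.17 and -0.22. Ncf1, the cytosolic organiser p47phox, read 5.82 and 5.90 on the metastatic arrays and 5.81 and 6.04 on the non-metastatic arrays, a difference of -0.06 (SE 0.13). Cyba, the partner of Cybb in the membrane and also a partner of oxidases outside phagocytes, was bright at 12.30 and 12.17 on the metastatic arrays and 12.28 and 12.39 on the non-metastatic arrays, a difference of -0.09 (SE 0.12). Ncf4, another cytosolic subunit, gave 0.10 (SE 0.13). Neither of these other subunits separated the groups.

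The MHC class II group was the only role group with more genes higher than lower, 4 against 2 of its 6, and none passed the test. That majority rests on small values, because averaging the probe sets of Ciita, or leaving out metastatic replicate 1 for H2-Ab1, each turned 1 gene and made it 3 against 3. H2-Eb1, the beta chain of I-E, had the largest difference of the 6, at 6.49 and 6.77 on the metastatic arrays and 7.01 and 7.00 on the non-metastatic arrays. Both metastatic arrays lay below, a difference of -0.37 (SE 0.13) with a 95% interval of -0.70 to -0.04 and an adjusted p of 0.768 by limma with Benjamini-Hochberg adjustment. Its non-metastatic arrays were nearly the same, and with single arrays left out the difference ran from -0.52 to -0.23, the latter without metastatic replicate 1. H2-Aa, the alpha chain of I-A, read 5.71 and 5.73 on the metastatic arrays and 5.61 and 5.67 on the non-metastatic arrays, slightly higher by 0.08 (SE 0.11). H2-Ab1, the beta chain of I-A, was dim at 5.53 and 5.39 on the metastatic arrays and 5.38 and 5.44 on the non-metastatic arrays, a difference of 0.05 (SE 0.11) with overlap.

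The windows upstream of H2-Aa and H2-Eb1 are shown for the Y box, the element bound by NF-Y in class II promoters, because both hold it while their differences had opposite signs, 0.08 and -0.37. The letters searched were CTGATTGG on both strands. The windows are the 250 bases before the RefSeq start on GRCm38.p6, at chr17:34287824-34288073 on the minus strand and chr17:34305617-34305866 on the plus strand, with the Y box in capitals.
H2-Aa: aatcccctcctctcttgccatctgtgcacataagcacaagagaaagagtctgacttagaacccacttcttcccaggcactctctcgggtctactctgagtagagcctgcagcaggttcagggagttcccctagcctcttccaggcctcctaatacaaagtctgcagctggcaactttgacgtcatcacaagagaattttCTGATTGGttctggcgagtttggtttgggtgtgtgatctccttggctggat
H2-Eb1: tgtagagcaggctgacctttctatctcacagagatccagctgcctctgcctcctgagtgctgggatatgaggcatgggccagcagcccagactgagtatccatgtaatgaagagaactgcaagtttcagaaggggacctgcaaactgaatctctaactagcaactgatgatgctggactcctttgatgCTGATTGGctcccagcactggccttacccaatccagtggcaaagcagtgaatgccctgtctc
Its first base lies 51 bases before the start in H2-Aa and 62 in H2-Eb1. Among the 24 members with a window only these 2 held it, against 4.43% of all genes and 3.83% of all windows.

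The other 3 class II members serve regulation and peptide loading. Cd74, the invariant chain that guards the peptide groove, read 6.53 and 6.46 on the metastatic arrays and 6.41 and 6.26 on the non-metastatic arrays, higher by 0.16 (SE 0.12). Ciita, the master regulator of the pathway, read 5.43 and 5.49 on the metastatic arrays and 5.30 and 5.18 on the non-metastatic arrays, higher by 0.21 (SE 0.11) at dim signal. Its probe sets disagreed, because 1421210_at read 5.03, 5.01, 5.36 and 5.31 in the same order, a difference of -0.32, and the mean over its probe sets was -0.03. H2-DMa, which loads peptide onto class II molecules, read 7.14 and 6.89 on the metastatic arrays and 7.16 and 7.16 on the non-metastatic arrays, a difference of -0.15 (SE 0.13), while its second probe set gave 0.11. Of the 15 other class II pathway genes measured, 5 were lower and 10 higher, with a median difference of 0.04. The groups separated as lower for 3 and as higher for 6, where 17.3% and 17.2% of all genes did so. Cd80, the costimulatory ligand of CD28, differed the most of those named by the rule, at 6.91 and 6.92 on the metastatic arrays and 7.88 and 7.19 on the non-metastatic arrays. Again non-metastatic replicate 1 was highest, and the difference of -0.62 (SE 0.23) became -0.27 without it. H2-Ob, a chain of the inhibitor of peptide loading, gave 0.20 (SE 0.13) and Rfxap, a subunit of the RFX complex on class II promoters, gave 0.18 (SE 0.12).

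A separate list of other macrophage genes was read beside the 35. Of 29 measured, 17 were lower and 12 higher, with a median difference of -0.03. The groups separated as lower for 6 and as higher for 5, where 17.3% and 17.2% of all genes did so. Lgmn, the lysosomal protease legumain that macrophages and stromal cells both make, was bright and higher in the metastatic samples, at 11.62 and 11.29 on the metastatic arrays and 10.64 and 10.67 on the non-metastatic arrays. Its difference was 0.80 (SE 0.14), with an adjusted p of 0.374 by limma with Benjamini-Hochberg adjustment. Tlr2, a receptor for bacterial lipoproteins, gave 0.51 (SE 0.19) and Cd84, an adhesion receptor of leukocytes, gave -0.36 (SE 0.13). Among 19 genes of haematopoietic signalling and cytoskeleton, 15 had the lower and 4 the higher mean (median difference -0.11). Arhgdib read 11.92 and 11.77 on the metastatic arrays and 12.26 and 12.26 on the non-metastatic arrays and differed by -0.41 (SE 0.11). Syk, the kinase downstream of ITAM adaptors, gave -0.43 (SE 0.13), and Evi2a gave 0.48 (SE 0.18).

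Markers of other leukocytes had no common direction, and with single arrays left out the median changed sign for 14 of the 15 lists beside the 35, all but the endothelial one. For neutrophils, 5 of 9 means were lower and 4 higher (median difference -0.03). S100a8 and S100a9, the subunits of calprotectin, differed in sign at -0.69 (SE 0.12) and 0.29 (SE 0.11). Both lay below the olfactory reference on every array, S100a8 at 4.91 and 5.10 on the metastatic arrays and 5.71 and 5.68 on the non-metastatic arrays. Mpo, myeloperoxidase, gave -0.18 (SE 0.11) and Camp, cathelicidin, gave 0.07 (SE 0.15). For mast cells and basophils, 5 of 7 means were lower and 2 higher (median -0.10). Gata2, a transcription factor that endothelium also expresses, gave -0.78 (SE 0.35), the tryptase Tpsb2 -0.15 (SE 0.12) and the carboxypeptidase Cpa3 -0.24 (SE 0.20). For dendritic cells, 6 of 9 means were lower and 3 higher (median -0.05). Among those were Cd209a at 0.19 (SE 0.11), Siglech at 0.14 (SE 0.11), Itgax at -0.16 (SE 0.17) and Flt3 at -0.05 (SE 0.17).

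Lymphocyte and osteoclast lists had medians as close to 0. T cell markers were lower for 6 of 9 and higher for 3 (median -0.06), with Cd3e at -0.23 (SE 0.16), Zap70 at -0.19 (SE 0.14) and Cd3g at 0.14 (SE 0.14). B and plasma cell markers were lower for 5 of 8 and higher for 3 (median -0.05), with Jchain at -0.15 (SE 0.15), Mzb1 at -0.08 (SE 0.11) and Pax5 at -0.10 (SE 0.15). NK cell markers were lower for 3 of 8 and higher for 5 (median 0.06), with Nkg7 at -0.23 (SE 0.13), Il2rb at 0.18 (SE 0.11) and Gzmb at 0.12 (SE 0.11). Osteoclast and multinucleated macrophage genes were lower for 4 of 7 and higher for 3 (median -0.04). Of these Ctsk, the collagen-cutting cathepsin K that fibroblasts also make, was bright and overlapped fully at 10.67 and 9.88 on the metastatic arrays and 9.97 and 10.66 on the non-metastatic arrays, while Dcstamp, Ocstamp and Atp6v0d2 gave -0.18 (SE 0.15), 0.10 (SE 0.11) and -0.18 (SE 0.14).

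The labelled cell type was checked against stromal markers. Of the 9 fibroblastic markers 8 lay above the olfactory reference on each array, with Pdpn, the selection antigen podoplanin, at 10.89 and 10.83 on the metastatic arrays and 10.35 and 10.35 on the non-metastatic arrays. Fibroblastic genes were lower for 4 of 9 and higher for 5, with a median difference of 0.01, with Col3a1, a fibrillar collagen, at -0.21 (SE 0.14) and the growth factor receptor Pdgfra at 0.25 (SE 0.19). Of the 9 endothelial markers 5 and 2 lay above it on the metastatic arrays and 6 and 4 on the non-metastatic arrays. Kdr and Flt4 lay above it on all 4 arrays, and Pecam1, Tie1 and Prox1 on none. The endothelial list had 7 of 9 means lower and 2 higher (median difference -0.14). Its defining adhesion molecule Cdh5 read 5.73 and 5.32 on the metastatic arrays and 6.76 and 5.68 on the non-metastatic arrays, Emcn, the sialomucin endomucin, gave -2.53 (SE 0.29) and Lyve1, the hyaluronan receptor of lymphatic endothelium and some macrophages, gave -2.76 (SE 0.64). Cdh5 went from -0.70 to -0.16 without non-metastatic replicate 1, the array that also held the most lysozyme and C1q signal. The summed linear signal of the 35 genes was 3716 and 3497 on the metastatic and 5139 and 4263 on the non-metastatic arrays. A few probe sets carry this sum. Csf1r, Fcgr2b and Cd53 made up 1610 and 1500 of it on the metastatic and 1950 and 2010 on the non-metastatic arrays. Lyz1 and Lyz2 made up 117 and 106 against 868 and 247, and the 15 dim members, Ptprc and Adgre1 among them, 474 and 473 against 543 and 480.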

How the data were processed

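RNA of 4 samples (3 ug of total RNA each, per the labels' protocols) was hybridised to 1-colour Affymetrix arrays. The deposited values are log2 signals, 1 per probe set and array. How the authors summarised and normalized the probes is not given in the sources used here. Depth does not apply, and the number of arrays limits precision. Of 45101 probe sets, 64 controls were left out. Symbols came from the platform annotation, updated by Entrez number through RefSeq GRCm38.p6 (34741 of 34945 single-gene probe sets found). A further 932 probe sets had several genes and 9160 none, and neither kind was named. Values were quantile normalized across the 4 arrays and tested with limma 3.58.1 in R 4.3.3 (lmFit and eBayes, no filter, no block, two-sided), with Benjamini-Hochberg adjustment over 45037 probe sets. The fit had 2 residual degrees of freedom and 3.71 prior ones. It was checked on data simulated from its own settings, for the mean estimated size of known changes and not for error rates. All 35 members are named. Of each other list up to 3 genes with the smallest limma p are named, and of a leukocyte type's list also the brightest gene. Endothelial markers above the olfactory reference on every array or on none are named as well. The members and lists were chosen with earlier results of these data known. Of 162 other genes listed, 150 had a single-gene probe set. The others are not reported here. Upstream windows came from a RefSeq table. Alternatives covered scaling, a brightness filter, variance moderation, the replicate block, averaged probe sets and each array left out.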

Additional observations from a re-analysis of the deposited data

How the results depend on the processing

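With all 4 arrays kept, the settings other than the replicate block called 0 of the 35 genes, and 4 genes changed sign under at least 1 of these settings. Fcgr2b turned to 0.027 on deposited values centred on array medians. Averaging a gene's probe sets gave -0.029 for Ptprc, -0.0069 for Cybb and -0.027 for Ciita, and, outside the 35, 0.019 for Csf1, 0.097 for Kitl and 0.010 for Pax5. Using only probe sets brighter than the median kept 16 of the 35, of which 12 were lower, 8 separated the groups as lower and 3 as higher. Of all 11922 genes kept in that setting, 49.6% were lower, 18.3% separated the groups as lower and 18.3% as higher. The medians of 5 of the 15 other lists changed sign under at least 1 of these settings. No scaling moved the median of all genes beyond 0.0158.

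The labels number the replicates but state no pairing, and the 2 pairs correlated at 0.248 over 45037 probe sets. With the replicate block, limma called 1 of the 35, Lyz1 (adjusted p 0.0365), and 93 of all 18193 genes, or 145 of 45037 probe sets. The Lyz1 call is of its brightest probe set, one of the x_at kind whose division between Lyz1 and Lyz2 is uncertain. At an unadjusted p under 0.05, 10 of the 35 were lower in that fit, where 5.77% of all genes were, against 4.07% without the block. Trend and robust moderation called 5 probe sets and none of the 35.

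Leaving out each array in turn, with the other 3 normalized again, called 0 of the 35. At an unadjusted p under 0.05, 3 to 7 were lower, where 2.5% to 8.1% of all genes were, with 3 (2.64%) when non-metastatic replicate 1 was left out. The groups separated as lower for 14 to 20 of the 35, where 28.6% to 40.8% of all genes did, and as higher for 8 to 12, where 28.5% to 38.8% did. A difference of at least 2-fold lower held for 1 to 4 of the 35, and for 0.775% to 1.07% of all genes. Without non-metastatic replicate 1 it held for 1 of the 35, Lyz1, and for 0.945% of all genes. The median of the 35 ran from -0.21 to -0.08. Signs turned for 12 of the 35, whose differences ran as follows over the 4 fits: Ptprc -0.095 to 0.17, Lcp1 -0.16 to 0.042, Laptm5 -0.11 to 0.070, Adgre1 -0.28 to 0.17, Fcgr2b -0.26 to 0.25, H2-Ab1 -0.015 to 0.12, Coro1a -0.31 to 0.056, Cd68 -0.86 to 0.12, Fcer1g -0.038 to 0.21, Ctss -0.63 to 0.32, Cybb -0.0056 to 0.051 and Ncf1 -0.18 to 0.050. Among the other genes named, the ranges were Csf1 -0.35 to 0.12, Flt3 -0.27 to 0.15, Camp -0.094 to 0.23, Cpa3 -0.48 to 0.013, Pax5 -0.26 to 0.063, Ctsk -0.45 to 0.35, Fcgr4 -0.023 to 0.33, Kitl -0.33 to 0.11 and Ncf4 -0.024 to 0.22. The cause of these changes was not tested.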
